A study of Mus musculus with 14 samples.

Results

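The genes described are 10 genes of matrix breakdown, the matrix metalloproteinases Mmp2, Mmp3, Mmp9, Mmp11, Mmp13, Mmp14 and Mmp19, and the tissue inhibitors Timp1, Timp2 and Timp3. They were taken by name from the 47729 genes of a count table, and all 10 were among the 15015 genes that passed the filter on low counts. The table holds RNA sequencing counts of cells sorted from the synovium, the lining tissue of the joint, in knees of C57BL6 mice aged 16 weeks. Arthritic CD105+ cells (CD200-CD105+, 5 libraries, numbered 10 to 14) and arthritic CD200+ cells (CD200+CD105-, 5 libraries, numbered 5 to 9) came from mice with antigen-induced arthritis, which had been immunized with methylated bovine serum albumin in complete Freund's adjuvant and then received the same protein into the joint. Non-immunized CD200+ cells (CD200+CD105-, 4 libraries, numbered 1 to 4) came from mice given saline in place of every injection. All knees were collected 10 days after the joint injection, and all cells were negative for TER119, CD31 and CD45, markers of red cells, endothelium and leukocytes, and carried CD51 (integrin alpha V). Each library was made from 200 to 500 cells released with collagenase. The labels do not say whether samples came from separate animals, so p-values measure only the spread between these samples, which may be technical.

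Matrix metalloproteinases are zinc-dependent enzymes, secreted as inactive precursors or anchored in the cell membrane, that cut collagens, proteoglycans and other matrix proteins. TIMPs are small secreted proteins that block their active sites, so the balance of both families helps to set how fast matrix is removed. In joints, fibroblasts of the synovium and chondrocytes make MMPs under the control of inflammatory cytokines, and in bone, osteoblasts and hypertrophic chondrocytes make the collagenase encoded by Mmp13.

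Mmp13 and Mmp3 lie in 1 row of 10 MMP genes on chromosome 9 and are shown here by the bases before their starts, because they were the members that reached the highest levels and they behaved differently between groups. The gene of Mmp13 spans chr9:7272514-7283331 and that of Mmp3 chr9:7445822-7455975 (GRCm38, both on the + strand), with 162490 bases, Mmp12 and Mmp1b between them. The sequences are the 250 bases before the transcript start in the RefSeq annotation (GRCm38.p6), lower case, 5′ to 3′ on the + strand, at chr9:7272264-7272513 for Mmp13, chr9:7445572-7445821 for Mmp3 and chr14:54431348-54431597 for Mmp14, the last added for its RUNX match. Capitals mark matches to TGANTCA (the AP-1 motif) and to TGTGGT or its reverse complement (a core RUNX motif).
Mmp13: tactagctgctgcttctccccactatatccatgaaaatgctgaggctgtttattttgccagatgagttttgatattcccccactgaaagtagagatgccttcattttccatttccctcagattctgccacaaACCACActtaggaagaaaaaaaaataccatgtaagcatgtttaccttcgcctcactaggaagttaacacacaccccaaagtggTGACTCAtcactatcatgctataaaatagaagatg
Mmp3: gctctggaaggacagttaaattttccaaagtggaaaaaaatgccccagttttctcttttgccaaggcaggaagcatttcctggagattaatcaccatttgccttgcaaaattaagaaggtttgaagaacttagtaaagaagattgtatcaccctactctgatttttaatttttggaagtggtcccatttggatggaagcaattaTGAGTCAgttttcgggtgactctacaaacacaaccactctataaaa
Mmp14: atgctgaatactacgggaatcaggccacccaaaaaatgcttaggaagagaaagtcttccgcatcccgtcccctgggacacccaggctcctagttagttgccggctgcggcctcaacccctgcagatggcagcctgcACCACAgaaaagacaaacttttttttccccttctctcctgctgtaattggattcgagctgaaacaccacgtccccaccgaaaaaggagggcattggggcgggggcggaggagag
In Mmp13 the AP-1 match began 35 bases before the start and the RUNX match, on the other strand, 118 bases before it. Mmp3 held an AP-1 match 46 bases before its start and no RUNX match, and Mmp14 a RUNX match 114 bases before its start and no AP-1 match. A TATAAA stretch began 16 bases before the start of Mmp13 and 7 bases before that of Mmp3. Promoter entries were found for 7 of the 10 members, and those of Mmp11, Timp1, Timp2 and Timp3 held neither AP-1 nor RUNX match in this window. On either strand, TGANTCA occurred in 6.75%, TGTGGT in 14% and TATAAA in 12.4% of 32817 mouse promoters of the same length. The motifs did not overlap each other, and a match is a run of letters, not evidence of binding.

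Counts on genes ranged from 2919666 to 18553803 per library, and spike-in RNA took over 80% of all counts in library 2 and in libraries 5 and 6. Levels are given as CPM, each gene's count relative to its library's gene total after TMM scaling, and 3 counts in 1 library correspond to 0.17 to 0.91 CPM. No unique molecular identifiers are described, so intervals from counts cover counting error only. Cd200 stood at 0 in 4 arthritic CD105+ libraries and at 11.4 CPM in library 12, against 318 to 541 CPM in arthritic and 428 to 796 CPM in non-immunized CD200+ libraries. Eng, which encodes CD105, reached at most 11.1, 1.35 and 12.2 CPM in the arthritic CD105+, arthritic CD200+ and non-immunized CD200+ groups, so transcript levels do not check that label. The summed level of 10 genes of the red cell lineage, called red cell genes below, was 27443.5 to 247185.4 CPM in arthritic CD105+ libraries, against 47.1 to 10389.6 CPM in arthritic and 1168.9 to 10154.3 CPM in non-immunized CD200+ libraries, although TER119+ cells had been gated out. Beside globin genes, the list holds the erythroid transcription factor gene Klf1 and the erythropoietin receptor gene Epor. These stood at 560 to 1473.2 and 78.6 to 230 CPM in arthritic CD105+ libraries. Both had no count in arthritic CD200+ libraries and reached at most 27 and 15.7 CPM in non-immunized CD200+ libraries. The summed level of 10 osteoblast genes ran the other way, with 75 to 526 CPM in arthritic CD105+ libraries, against 23416.6 to 42451.3 CPM in arthritic and 36227.9 to 121557.7 CPM in non-immunized CD200+ libraries. Spp1 was the largest part of each CD200+ sum, at 17438.2 to 36317.1 CPM in arthritic and 22077.7 to 99708.6 CPM in non-immunized libraries. In library 5 it was 32267.3 of 32433.8 CPM, with Sp7, Runx2 and Dmp1 at 0 CPM.

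Mmp13, the collagenase best known for cleaving the type II collagen of cartilage, was the member that separated the sorted populations. It stood at 0, 0, 0, 0.341 and 0.515 CPM in arthritic CD105+ libraries 10 to 14. In arthritic CD200+ libraries 5 to 9 it was at 583, 78.8, 1289.2, 2300.3 and 3911.9 CPM. In non-immunized CD200+ libraries 1 to 4 it was at 3991.2, 2031.0, 3062.2 and 4407.9 CPM. The highest CD105+ library lay far below the lowest CD200+ library, while the 2 CD200+ groups overlapped. The 5 arthritic CD105+ libraries held 13 Mmp13 counts in all, 0.207 CPM over the group (95% Poisson interval 0.11 to 0.353). Mmp13 was lower in arthritic CD105+ than in arthritic CD200+ cells by a log2 change of -12.96 (SE 1.38, edgeR adjusted p = 0.000109), and lower than in non-immunized CD200+ cells by -14.01 (SE 1.43, edgeR adjusted p = 9.03e-05). Both calls were made under every alternative run, including each omission of 1 library. In bulk samples, fewer cells that express a gene and less RNA per cell cannot be told apart. Osteoblast genes moved with Mmp13 between the populations, with Ibsp, the bone sialoprotein of mature osteoblasts, at 0 to 0.515 CPM in arthritic CD105+ libraries, against 49.7 to 4355.8 CPM in arthritic and 4210.8 to 7252.1 CPM in non-immunized CD200+ libraries, and red cell genes moved the opposite way. Skeletal muscle genes (10 in the list) also moved with Mmp13, summing to 0.444 to 14.1 CPM in arthritic CD105+ libraries, against 514 to 1178.5 CPM in arthritic and 249 to 1163.3 CPM in non-immunized CD200+ libraries. By mean, Pax7 (293 CPM), Des (180 CPM), Myod1 (168 CPM) and Myf5 (104 CPM) led the list in arthritic CD200+ cells. Myh4, Myh1 and Ckm of the same list averaged 3.07, 4.57 and 5.34 CPM there. Genes of mural cells of vessels (8 in the list) summed to 3.77 to 282 CPM in arthritic CD105+ libraries, against 502 to 1540.1 CPM in arthritic and 313 to 1083.4 CPM in non-immunized CD200+ libraries. Acta2 was the largest part of each arthritic CD200+ sum, at 277 to 1076.7 CPM. Of this list only Notch3 was called between the arthritic populations (log2 change -6.29, edgeR adjusted p = 0.00955), and Rgs5, Cspg4 and Mcam were at -1.53, -1.44 and -0.92. The part of any of these in the Mmp13 difference was not tested.

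Between arthritic and non-immunized CD200+ cells, Mmp13 averaged 1632.8 ± 1522.7 CPM (SD, n = 5) and 3373.1 ± 1056.8 CPM (SD, n = 4). The log2 change was -1.05 (SE 0.88, 95% interval -2.76 to 0.67, edgeR adjusted p = 1), which is within the spread of the libraries. Libraries 5 and 6, the lowest arthritic CD200+ libraries for Mmp13, were also those with over 80% spike-ins.

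**Figure D1:**
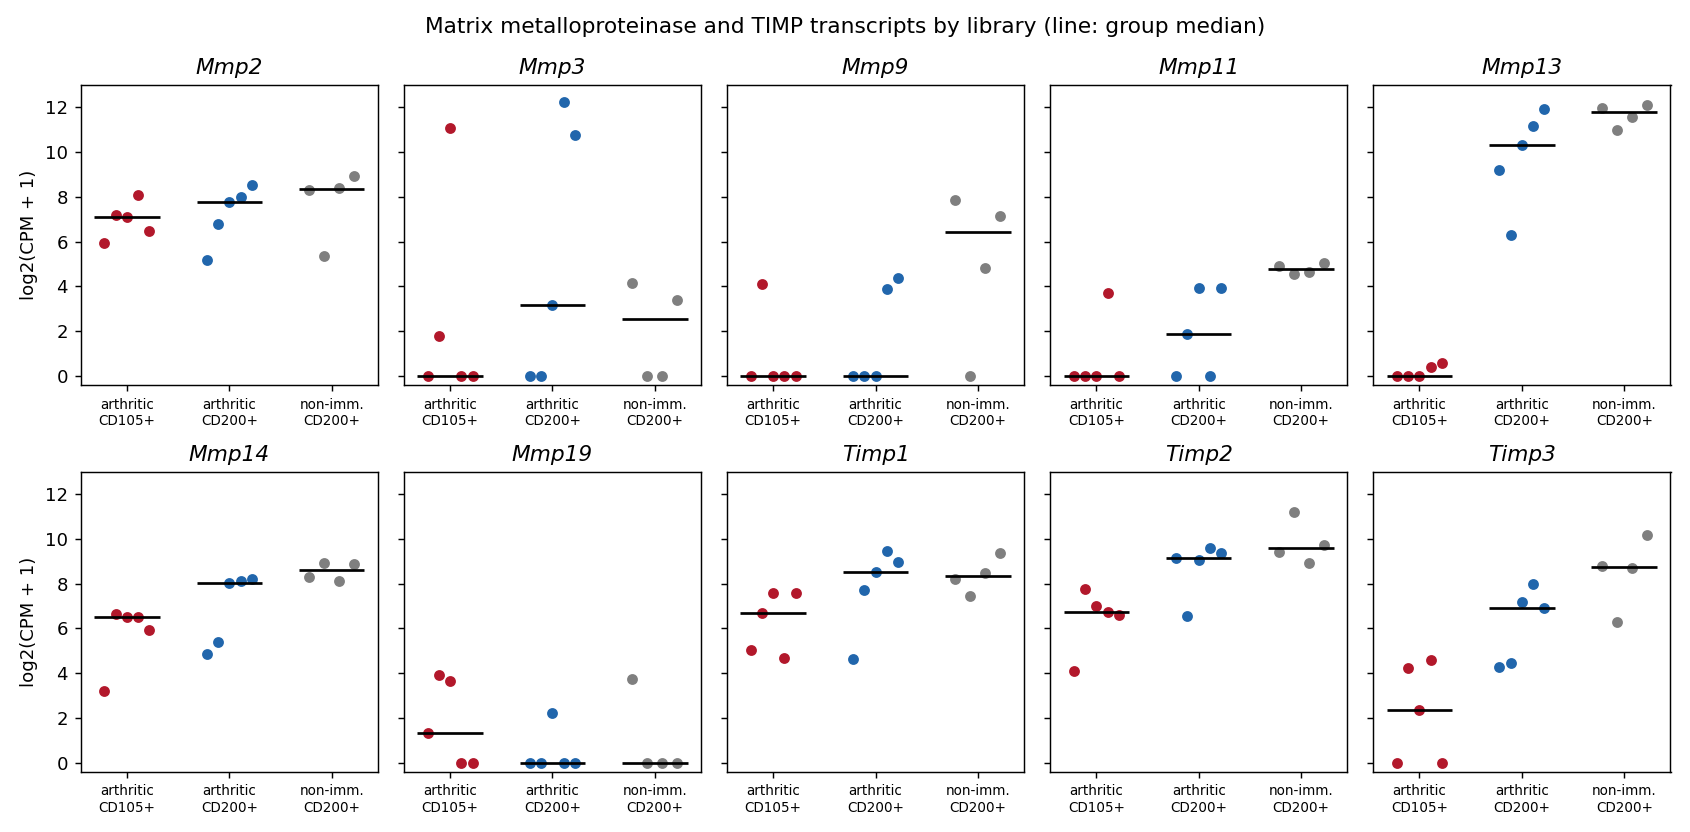
Each point is 1 library and each line a group median, on a vertical axis of log2(CPM + 1), for the 10 members in arthritic CD105+, arthritic CD200+ and non-immunized CD200+ cells. Mmp13 shows 5 CD105+ libraries at or near 0 and 9 CD200+ libraries from 78.8 to 4407.9 CPM, while Mmp3 is high in single libraries of both arthritic groups.

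Mmp3, or stromelysin 1, cuts proteoglycans and activates other pro-MMPs, and is a known product of synovial fibroblasts. In arthritic CD105+ libraries 10 to 14 it stood at 0, 2.45, 2157.8, 0 and 0 CPM. In arthritic CD200+ libraries 5 to 9 it stood at 0, 0, 7.97, 4897.3 and 1745.5 CPM. The non-immunized CD200+ libraries 1 to 4 gave 17, 0, 0 and 9.66 CPM. Levels of 1745.5 CPM or more were found only in libraries 8, 9 and 12, all from arthritic mice, while 7 of the 14 libraries had no count and all 3 groups overlapped. The mean was 1330.1 ± 2132.1 CPM in arthritic CD200+ cells (SD, n = 5) and 6.67 ± 8.26 CPM in non-immunized CD200+ cells (SD, n = 4), a log2 change of 7.62 (SE 3.9, 95% interval -0.02 to 15.26, edgeR adjusted p = 0.914) that was not called. Arthritic CD105+ cells differed by -1.62 from arthritic CD200+ cells (SE 2.69, edgeR adjusted p = 0.773) and by 6.00 from non-immunized CD200+ cells (SE 3.61, edgeR adjusted p = 0.302). Without library 12 these were -10.93 (edgeR adjusted p = 0.0764) and -3.31 (edgeR adjusted p = 0.471). The first was -0.02 without library 8 (edgeR adjusted p = 0.998) and -9.00 in limma voom (limma adjusted p = 0.0971), and the second was -1.07 in limma voom (limma adjusted p = 0.918).

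Genes of the synovial lining were set beside Mmp3, since lining fibroblasts are a known source of it. Their summed level over 7 genes was 1592.3 and 2061.2 CPM in libraries 8 and 9, the highest of the arthritic CD200+ group, and Prg4, the lubricin gene that defines the lining, led it. Lining genes did not track Mmp3 elsewhere: library 11 had 5732.4 CPM of lining genes with 2.45 CPM of Mmp3, libraries 10 and 14 had 2299.5 and 2282.2 CPM with none, and library 12 had 384 CPM with 2157.8 CPM of Mmp3. Chondrocyte genes (11 in the list) summed to 5871.8 CPM in library 12, against 16.9 to 24 CPM in the other arthritic CD105+ libraries. They did not track Mmp3 elsewhere either, with 519 and 656 CPM in libraries 8 and 9, against 5131.6 CPM in library 7 and 19581.4 CPM in library 3, where Mmp3 was at 7.97 and 0 CPM. The part of either cell type in the Mmp3 values was not tested.

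**Figure D2:**
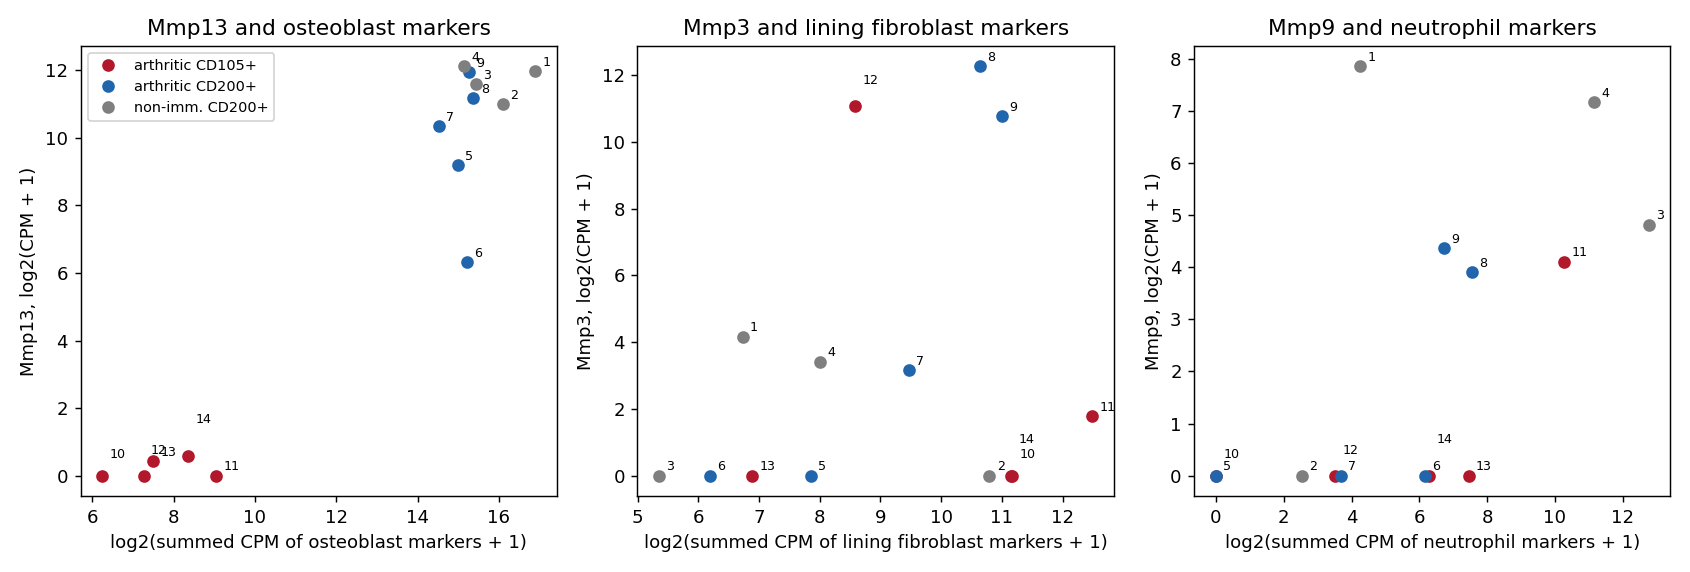
Mmp13, Mmp3 and Mmp9 (vertical axes) are plotted against the summed level of osteoblast, lining fibroblast and neutrophil genes (horizontal axes), all as log2(CPM + 1), with each point 1 library marked by its number. The CD105+ libraries sit together at low Mmp13 and low osteoblast genes, and library 12 holds high Mmp3 with few lining genes. Spp1 is the largest part of the osteoblast sum in each CD200+ library.

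The gelatinases Mmp2 and Mmp9 cut denatured collagen and the type IV collagen of basement membranes. Mmp2 is made constitutively by most fibroblasts, and it was counted in all 14 libraries. It stood at 60.8, 144, 135, 268 and 87 CPM in arthritic CD105+ libraries 10 to 14, at 35.4, 110, 217, 257 and 365 CPM in arthritic CD200+ libraries 5 to 9, and at 320, 39.8, 334 and 489 CPM in non-immunized CD200+ libraries 1 to 4. All groups overlapped, with the lowest value of each CD200+ group in a library of over 80% spike-ins. The log2 change was -0.50 between arthritic CD105+ and arthritic CD200+ cells (SE 0.64, 95% interval -1.76 to 0.76, edgeR adjusted p = 0.69). When libraries were scaled by their spike-ins it was 0.31, with the median of all genes moved to 1.22. Relative to the median of all genes, it was -0.45 with TMM scaling and -0.91 with spike-in scaling. Against non-immunized CD200+ cells, it was -1.09 in arthritic CD105+ cells (SE 0.68, edgeR adjusted p = 0.32) and -0.59 in arthritic CD200+ cells (SE 0.68, edgeR adjusted p = 1). The arthritic CD105+ change passed the threshold without the libraries of over 80% spike-ins (-1.42, edgeR adjusted p = 0.0361).

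Mmp9, which neutrophils, macrophages and osteoclasts are known to make, was sparse. It had counts in 1 of 5 arthritic CD105+ libraries, with 16.2 CPM in library 11. Of the arthritic CD200+ libraries, 8 and 9 had 14 and 19.6 CPM, and the other 3 had no count. Non-immunized CD200+ libraries 1 to 4 had 230, 0, 27.1 and 142 CPM, so the highest values were in the non-immunized mice, and the groups overlapped. The log2 change was -3.88 in arthritic against non-immunized CD200+ cells (SE 2.45, edgeR adjusted p = 1) and -4.92 in arthritic CD105+ against non-immunized CD200+ cells (SE 2.56, edgeR adjusted p = 0.225). The arthritic CD105+ change passed the threshold without library 11 (-13.21, edgeR adjusted p = 0.0464) and in limma voom (-8.37, limma adjusted p = 0.00755). Between arthritic CD105+ and CD200+ cells the change was -1.04 (SE 2.17, edgeR adjusted p = 0.822), and 0.35 with spike-in scaling. Relative to the median of all genes, these were -0.99 and -0.87. The change was -9.33 without library 11 (edgeR adjusted p = 0.109), -0.13 without library 9 (edgeR adjusted p = 0.981) and -2.41 in limma voom (limma adjusted p = 0.567).

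Neutrophil genes (11 in the list) were set beside Mmp9. They summed to 1238.2 CPM in library 11, against 0 to 174 CPM in the other arthritic CD105+ libraries, and to 0 to 188 CPM in arthritic CD200+ libraries. In non-immunized CD200+ libraries they summed to 18.2, 4.84, 6982.1 and 2280.6 CPM, so library 1 had the highest Mmp9 with few neutrophil transcripts. Macrophage genes (10 in the list) reached 5582.1 CPM in library 11 and at most 279 CPM elsewhere. Osteoclast genes (8 in the list) summed to 349 to 554 CPM in arthritic CD105+ libraries, against 61.6 to 446 CPM in arthritic and 154 to 422 CPM in non-immunized CD200+ libraries. Acp5, which encodes the acid phosphatase of osteoclasts, was at 145 to 499 CPM in arthritic CD105+ libraries, against at most 4.06 CPM in arthritic CD200+ libraries (log2 change 8.67, edgeR adjusted p = 0.0264) and at most 44.8 CPM in non-immunized CD200+ libraries. Calcr of the same list went the other way, at 0 CPM in every arthritic CD105+ library. It reached 442 CPM in arthritic CD200+ libraries (log2 change -13.57, edgeR adjusted p = 0.00498) and 94.3 CPM in non-immunized CD200+ libraries. The 442 CPM were in library 5 and made up most of its osteoclast sum of 446 CPM. Nfatc1 averaged 5.46, 24.9 and 46.8 CPM and Ctsk 93, 62.3 and 124 CPM in arthritic CD105+, arthritic CD200+ and non-immunized CD200+ cells. Dcstamp had no count in any library, and Ocstamp and Atp6v0d2 had none in any arthritic library. The part of these cell types in the Mmp9 values was not tested.

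Mmp14 is the membrane-anchored MMP that activates pro-Mmp2 together with Timp2. It was counted in all 14 libraries, at 8.21, 98.9, 89.4, 89.2 and 60.1 CPM in arthritic CD105+ libraries 10 to 14. Arthritic CD200+ libraries 5 to 9 had 27.6, 40.6, 259, 279 and 292 CPM. Non-immunized CD200+ libraries 1 to 4 had 316, 490, 275 and 463 CPM. The arthritic CD105+ libraries all lay below the non-immunized CD200+ libraries and overlapped with libraries 5 and 6, the lowest arthritic CD200+ libraries. Mmp14 was lower in arthritic CD105+ than in non-immunized CD200+ cells by a log2 change of -2.48 (SE 0.73, edgeR adjusted p = 0.0392). That call was lost on leaving out any 1 of the 9 libraries (edgeR adjusted p 0.0516 to 0.0834), with no filter on low counts (edgeR adjusted p = 0.0682) and with spike-in scaling (-0.83, edgeR adjusted p = 0.691). Relative to the median of all genes, the change was -2.24 with TMM scaling and -2.04 with spike-in scaling. Against arthritic CD200+ cells the change was -1.38 (SE 0.68, edgeR adjusted p = 0.219), and -1.96 without the libraries of over 80% spike-ins (edgeR adjusted p = 0.0426). Limma voom also called it (-1.70, limma adjusted p = 0.0139), and spike-in scaling gave -0.45 (edgeR adjusted p = 0.819). Arthritic CD200+ cells differed from non-immunized CD200+ cells by -1.10 (SE 0.71, edgeR adjusted p = 1).

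Mmp11, stromelysin 3, which stromal cells make during tissue remodelling, was low. It had 11.9 CPM in library 13 and no count in the other 4 arthritic CD105+ libraries. Arthritic CD200+ libraries 5 to 9 had 0, 2.73, 14.1, 0 and 14.3 CPM, and non-immunized CD200+ libraries 1 to 4 had 29.2, 22.7, 23.8 and 31.8 CPM. Every non-immunized CD200+ library was above every arthritic library of both populations, the one member for which arthritic and non-immunized CD200+ cells did not overlap (1.18% of all genes tested were lower without overlap in that comparison). Neither log2 change was called, with -2.10 in arthritic CD200+ cells (SE 2.12, edgeR adjusted p = 1) and -3.48 in arthritic CD105+ cells (SE 2.22, edgeR adjusted p = 0.334), both against non-immunized CD200+ cells. The arthritic CD105+ change passed the threshold without library 13 (-11.31, edgeR adjusted p = 0.0309) and in limma voom (-7.49, limma adjusted p = 0.00179). Mmp11 shares 155 exon bases with Chchd10 on the opposite strand (23629 counts in all), and the sources used here do not say whether reads were counted by strand, so some of its reads may belong to that gene.

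Mmp19, an MMP with basement membrane substrates, had no count in 9 of the 14 libraries. It stood at 1.55, 14 and 11.7 CPM in arthritic CD105+ libraries 10 to 12 and had no count in libraries 13 and 14. One arthritic CD200+ library, 7, had 3.61 CPM and 1 non-immunized CD200+ library, 1, had 12.4 CPM, with no count in the rest. The groups overlapped and no change was called, with 2.87 for arthritic CD105+ against CD200+ cells (SE 2.59, edgeR adjusted p = 0.542), 0.82 against non-immunized CD200+ cells (SE 2.6, edgeR adjusted p = 0.87), and -2.06 for arthritic against non-immunized CD200+ cells (SE 2.59, edgeR adjusted p = 1). The first was 9.08 without library 7 (edgeR adjusted p = 0.167) and the second 9.05 without library 1 (edgeR adjusted p = 0.171). The third was 6.13 without library 1 (edgeR adjusted p = 0.844) and -8.26 without library 7 (edgeR adjusted p = 0.734). Mmp19 shares 789 exon bases with Tmem198b on the opposite strand (473 counts).

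Of the inhibitors, Timp1 is induced by cytokines and binds most secreted MMPs. In arthritic CD105+ libraries 10 to 14 it stood at 32.2, 102, 192, 24.6 and 188 CPM. Arthritic CD200+ libraries 5 to 9 had 24, 211, 361, 709 and 504 CPM, and non-immunized CD200+ libraries 1 to 4 had 297, 174, 360 and 667 CPM. The arthritic CD200+ range enclosed both others, and its lowest value came from library 5, rich in spike-ins. Arthritic CD105+ cells differed by -1.74 from arthritic CD200+ cells (SE 0.75, 95% interval -3.22 to -0.27, edgeR adjusted p = 0.152) and by -1.79 from non-immunized CD200+ cells (SE 0.78, edgeR adjusted p = 0.145). Without the 3 libraries of over 80% spike-ins these became -2.23 (edgeR adjusted p = 0.045) and -1.98 (edgeR adjusted p = 0.0536). Limma voom called both, at -2.29 (limma adjusted p = 0.0117) and -2.08 (limma adjusted p = 0.0252). The difference of arthritic from non-immunized CD200+ cells was -0.05 (SE 0.78, 95% interval -1.57 to 1.47, edgeR adjusted p = 1).

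Timp2, which blocks MMPs and also brings pro-Mmp2 to Mmp14 on the cell surface, was lower in arthritic CD105+ cells in both comparisons. It stood at 16, 219, 126, 104 and 96.8 CPM in arthritic CD105+ libraries 10 to 14. Arthritic CD200+ libraries 5 to 9 had 570, 93.7, 532, 769 and 658 CPM. Non-immunized CD200+ libraries 1 to 4 had 674, 2346.6, 478 and 859 CPM. Library 6 was the single arthritic CD200+ library inside the arthritic CD105+ range, and no non-immunized CD200+ library was. Relative to arthritic CD200+ cells the log2 change was -2.22 (SE 0.66, edgeR adjusted p = 0.0442), and relative to non-immunized CD200+ cells -3.28 (SE 0.71, edgeR adjusted p = 0.00937). The first call held in only 2 of the 10 fits that left out a library, those without library 6 or 11, with edgeR adjusted p 0.0641 to 0.0955 in the others, and was lost with no filter on low counts (edgeR adjusted p = 0.0781). The second held in all 9 such fits. Neither was called with spike-in scaling (-0.89, edgeR adjusted p = 0.614, and -1.11, edgeR adjusted p = 0.555), which moved the median of all genes to 1.22 and 1.21. Relative to the median of all genes, the changes were -2.17 and -3.04 with TMM scaling and -2.11 and -2.32 with spike-in scaling. Arthritic CD200+ cells differed from non-immunized CD200+ cells by -1.05 (SE 0.67, edgeR adjusted p = 1), and by -0.04 without the libraries of over 80% spike-ins.

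Timp3 binds the extracellular matrix and also inhibits ADAM and aggrecan-cleaving ADAMTS proteases. Arthritic CD105+ libraries 10 to 14 had 0, 17.9, 4.2, 23 and 0 CPM. The values were 18.7, 20.9, 144, 255 and 119 CPM in arthritic CD200+ libraries 5 to 9, and 435, 76.5, 410 and 1146.6 CPM in non-immunized CD200+ libraries 1 to 4. Arthritic CD105+ libraries lay below all non-immunized CD200+ libraries and overlapped with libraries 5 and 6 of the arthritic CD200+ group. Timp3 was lower in arthritic CD105+ than in non-immunized CD200+ cells by -5.83 (SE 1.52, edgeR adjusted p = 0.0227), a call lost without library 4 (-5.07, edgeR adjusted p = 0.0568) and with spike-in scaling (-4.62, edgeR adjusted p = 0.117). Relative to the median of all genes, Timp3 was at -5.59 with TMM scaling and -5.83 with spike-in scaling. Against arthritic CD200+ cells it differed by -3.62 (SE 1.35, edgeR adjusted p = 0.0982), called by DESeq2 (-3.74, DESeq2 adjusted p = 0.0125) and limma voom (-6.66, limma adjusted p = 0.0109). Arthritic CD200+ cells differed from non-immunized CD200+ cells by -2.21 (SE 1.31, 95% interval -4.78 to 0.36, edgeR adjusted p = 1).

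**Figure D3:**
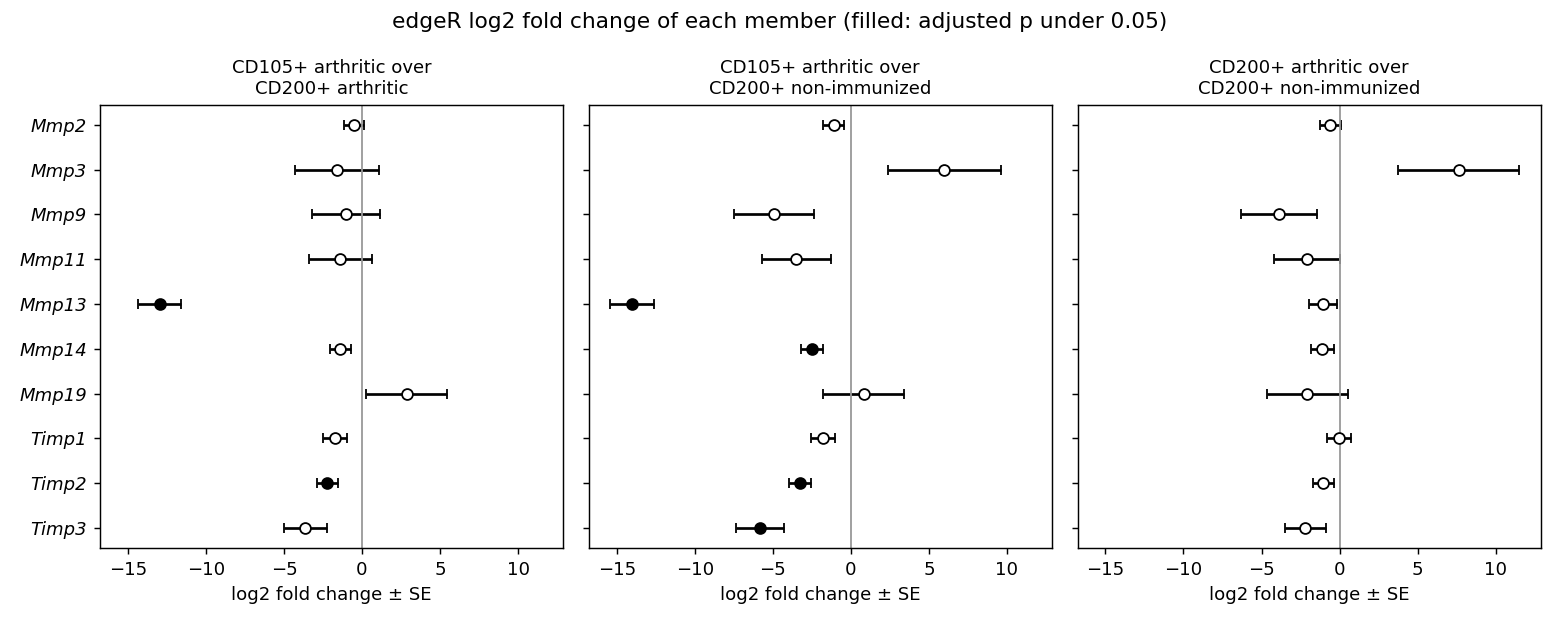
Log2 fold changes of the 10 members in edgeR, with bars of 1 SE, for arthritic CD105+ over arthritic CD200+ cells, arthritic CD105+ over non-immunized CD200+ cells and arthritic over non-immunized CD200+ cells. Filled points passed an adjusted p of 0.05: Mmp13 and Timp2 in the first panel, Mmp13, Mmp14, Timp2 and Timp3 in the second, none in the third.

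Counted over the members, arthritic CD105+ cells had 2 of 10 lower than arthritic CD200+ cells and 0 higher, where 11.3% of all 15015 genes tested were called, 4.79% higher and 6.48% lower. Against non-immunized CD200+ cells, 4 of 10 were lower and 0 higher, beside 13.2% of all genes called, 5.57% higher and 7.63% lower. That comparison differs in both population and disease, which cannot be told apart in it, and it shares its libraries with the other comparisons. In arthritic against non-immunized CD200+ cells no member was called, and edgeR called 0% of all genes, with 915 genes (6.09%) at an unadjusted p under 0.05, none of them a member. DESeq2 called 192 genes and limma voom 4 in that comparison, with no member among them. The log2 change was negative for 9, 8 and 9 of 10 members in the arthritic CD105+ against CD200+, arthritic CD105+ against non-immunized CD200+ and arthritic against non-immunized CD200+ comparisons, beside 51.2%, 54.5% and 54.2% of all genes. The median change of the members was -1.50, -2.88 and -1.08, beside -0.05, -0.24 and -0.10 over all genes. Members lower without overlap numbered 1, 5 and 1, beside 6.33%, 11.5% and 1.18% of all genes. Mmp9, Mmp11 and Mmp19 entered the first of these comparisons, and Mmp19 the third, only through a filter over all 3 groups. In fits of only the 2 groups compared, 7, 10 and 9 members passed the filter, with median changes of -1.77, -2.85 and -1.09. The median over all genes was then 0.05, -0.06 and -0.12. Scaling by spike-ins moved the median of all genes to 1.22 and 1.21 in the first and second of these comparisons and left 1 member, Mmp13, called in each CD105+ comparison (-12.08, edgeR adjusted p = 0.00157, and -12.65, edgeR adjusted p = 0.00184).

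Levels of different members were set side by side as CPM per kb of exon. In arthritic CD105+ cells Mmp3 led with 240 CPM per kb, 99.9% of it from library 12, ahead of Timp1 with 122, Mmp2 with 41.2, Timp2 with 28.8 and Mmp14 with 11.6, and Mmp13 was the lowest with 0.064. In arthritic CD200+ cells Mmp3 (739) and Mmp13 (611) were ahead of Timp1 (408) and Timp2 (135), although Mmp3 exceeded Mmp13 in 1 library, number 8. In non-immunized CD200+ cells Mmp13 led with 1261.9 CPM per kb, above Timp1 (422) in all 4 libraries with no overlap of their ranges, and Timp2 followed with 280. All other neighbours in the order had overlapping ranges within their group. By this measure Mmp13 ranked 13986, 111 and 45 among 14960 genes with an exon length in the arthritic CD105+, arthritic CD200+ and non-immunized CD200+ groups. Mmp13 made up 0 to 0.534% of the summed level of the 7 MMP members in arthritic CD105+ libraries, 23.2 to 93.5% in arthritic CD200+ libraries and 85.5 to 88.1% in non-immunized CD200+ libraries. The ratio of summed MMP to summed TIMP members ran from 0.152 to 5.03 in arthritic CD105+ libraries, the highest in library 12, from 0.264 to 3.61 in arthritic CD200+ libraries and from 1.07 to 3.09 in non-immunized CD200+ libraries, so the groups overlapped. These ratios concern transcripts, not enzyme activity.

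**Figure D4:**
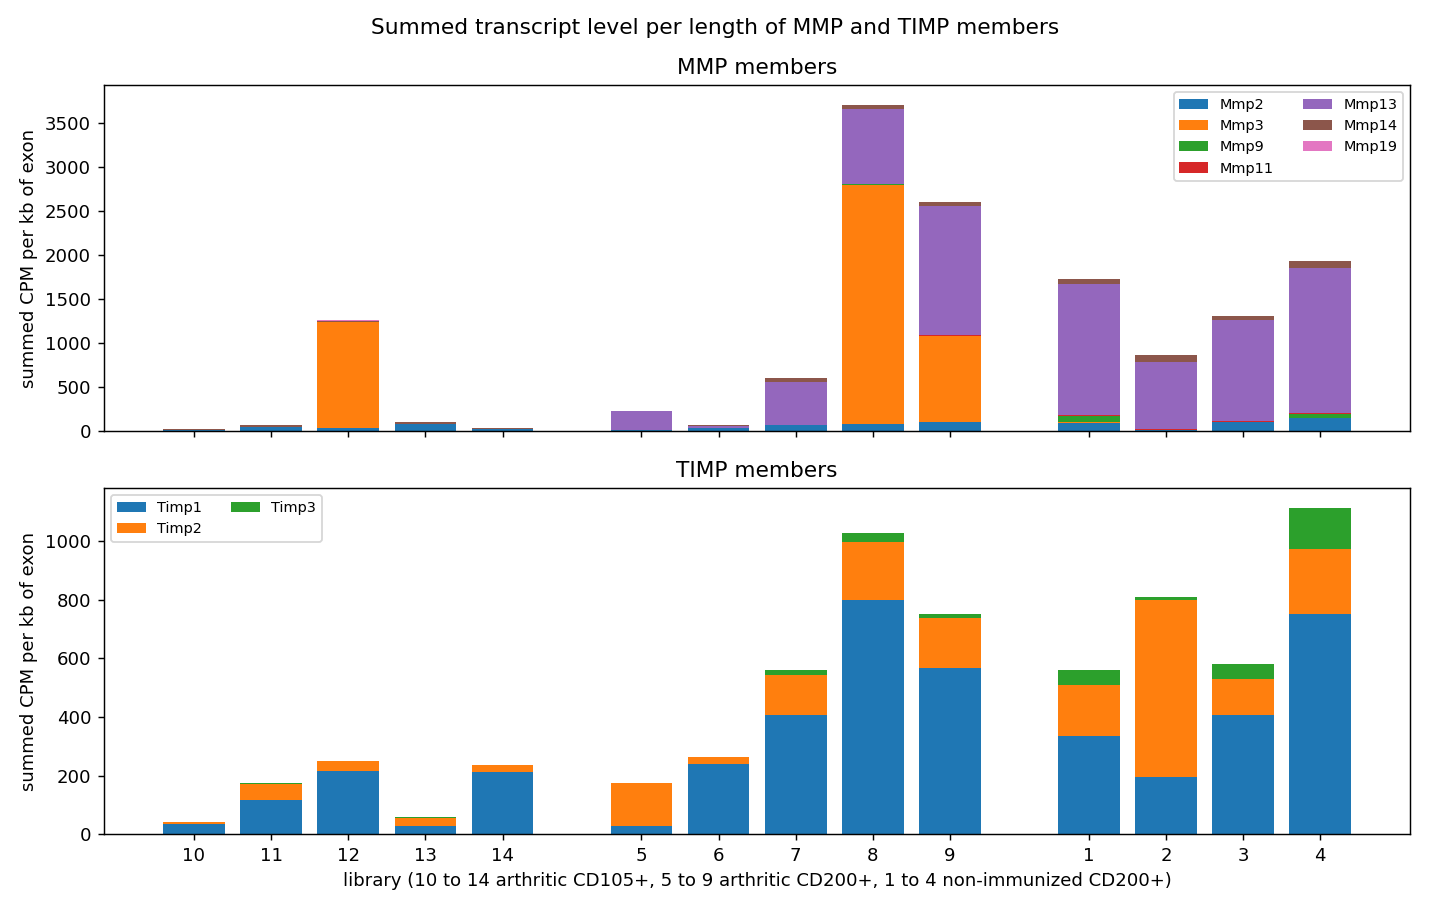
Stacked bars give CPM per kb of exon of the 7 MMP members (top) and the 3 TIMP members (bottom) in each library, with arthritic CD105+ libraries 10 to 14 on the left, arthritic CD200+ libraries 5 to 9 in the middle and non-immunized CD200+ libraries 1 to 4 on the right. Mmp13 fills most of each non-immunized bar, and Mmp3 fills that of library 12 and most of that of library 8.

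Across the 9 CD200+ libraries some members rose and fell together. Spearman's rho of log2(CPM + 1) was highest for Mmp9 and Mmp13 (0.923), Mmp2 and Mmp13 (0.867) and Mmp9 and Timp3 (0.862). Next were Mmp13 and Timp3 (0.85), Mmp2 and Mmp9 (0.836), Mmp14 and Timp2 (0.833), Mmp2 and Timp3 (0.8) and Mmp3 and Timp1 (0.792). Mmp3 had no count in 2 arthritic and 2 non-immunized CD200+ libraries, and Mmp9 in 3 and 1, so their values rest partly on ties. Mmp14 and Timp2 are partners in activating pro-Mmp2, and the rho of Mmp2 was 0.45 with Mmp14 and 0.15 with Timp2. In library 2, with 85.35% spike-ins, Mmp2 was at 39.8 CPM, while Mmp14 (490 CPM) and Timp2 (2346.6 CPM) were at their highest. The part of library 2 in these values was not tested. These libraries share 2 disease states and differ in spike-in share, with which the rho of members ran from -0.609 (Mmp3) to -0.017 (Timp2), so the values describe these libraries.

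Genes outside the family whose levels were ordered most like a member's over all 14 libraries were named by Spearman's rho. For Mmp13 they were Fat1 (0.965), Olfml2b (0.947) and Alpl (0.946), the last encoding the alkaline phosphatase of osteoblasts. For Mmp3 they were Tspan11 (0.95), Ddah1 (0.928) and Ttc7b (0.921). For Mmp14 they were Zyg11b (0.948), Slc39a13 (0.938) and Enpp1 (0.937), and for Timp1 Bet1l (0.916), Pbxip1 (0.916) and Lacc1 (0.915). Within the 9 CD200+ libraries the values for these 12 genes were 0.833 to 0.967. The genes were picked over libraries that include these 9, so that range is no separate support for the likeness. Mmp3 had no count in 7 of the 14 libraries, so its values rest partly on ties.

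Among 17 further MMP and TIMP genes, 4 passed the filter and none was called in any comparison. Timp4, the remaining TIMP, had no count in arthritic CD105+ libraries and averaged 16.4 ± 22.3 CPM in arthritic CD200+ cells (SD, n = 5; edgeR adjusted p = 0.0684) and 4.46 ± 6.77 CPM in non-immunized CD200+ cells (SD, n = 4; edgeR adjusted p = 0.093). Mmp16, a membrane-type MMP, averaged 1.91 ± 2.57 CPM in arthritic CD105+, 9.82 ± 11.6 CPM in arthritic CD200+ (SD, n = 5 each) and 27.3 ± 16.4 CPM in non-immunized CD200+ cells (SD, n = 4). Of the 10 genes of the chromosome 9 row, Mmp1a, Mmp1b and Mmp7 had no count in any library, and Mmp12, next to Mmp13, reached 16.4 CPM at most.

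Of 24 regulators and activators of MMPs, 22 were tested. In arthritic CD105+ against arthritic CD200+ cells 1 was higher and 3 were lower, with a median log2 change of -2.13. Beside this, 4.79% of all genes tested were called higher and 6.48% lower. Bsg, which encodes basigin, known as an inducer of MMPs in fibroblasts, averaged 717 ± 179 CPM in arthritic CD105+ cells and 224 ± 88.6 CPM in arthritic CD200+ cells (SD, n = 5 each), a log2 change of 1.68 (edgeR adjusted p = 0.0033). In humans it is also a blood group protein of red cells, and red cell genes were high in the same libraries; their part in the difference was not tested. The protease inhibitor gene A2m, encoding alpha-2-macroglobulin, was at 0 in arthritic CD105+ libraries and averaged 52.1 ± 69.7 CPM in arthritic CD200+ libraries (edgeR adjusted p = 0.0182). Serpine2, an inhibitor of serine proteases that activate MMPs, fell by 4.52 on the log2 scale (edgeR adjusted p = 0.0204), and Cav1, which encodes caveolin 1, by a log2 change of -3.55 (edgeR adjusted p = 0.0186). The Serpine2 call was lost without library 14 (-4.27, edgeR adjusted p = 0.0512), and the Cav1 call without the libraries of over 80% spike-ins (-2.99, edgeR adjusted p = 0.0727) and in limma voom (-2.08, limma adjusted p = 0.145). Against non-immunized CD200+ cells 1 was higher and 5 were lower, beside 5.57% and 7.63% of all genes. In arthritic against non-immunized CD200+ cells none was called. With spike-in scaling A2m alone stayed called, at the same sign, in each CD105+ comparison, and Bsg was at 2.72 (edgeR adjusted p = 0.085).

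Transcription factors known to act on MMP genes were 18, and in arthritic CD105+ against arthritic CD200+ cells their median log2 change was -3.16. Beside 6.48% of all genes called lower and 4.79% higher, 6 of the 18 were lower and 0 higher. They included the AP-1 subunit genes Fosb, at 13.9 ± 11.5 CPM in arthritic CD105+ cells and 682 ± 544 CPM in arthritic CD200+ cells (SD, n = 5 each; log2 change -5.61, edgeR adjusted p = 0.00198), Jun (-4.06, edgeR adjusted p = 0.00374) and Junb (-3.93, edgeR adjusted p = 0.0142), and the immediate early factor gene Egr1 (-5.09, edgeR adjusted p = 0.0138). Against non-immunized CD200+ cells 8 were lower and 0 higher, beside 7.63% and 5.57% of all genes. With spike-in scaling 2 were lower in each of these comparisons, Egr1 and Runx2 in the first and Junb and Runx2 in the second. DESeq2 gave no adjusted p for Junb. In arthritic against non-immunized CD200+ cells none was called, with Jund at -2.92 and Junb at -2.60 (edgeR adjusted p = 0.636 each).

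Cytokines and receptors that induce MMPs numbered 13 tested of 19, and 5 were lower and 0 higher in arthritic CD105+ than in arthritic CD200+ cells, with a median of -2.63. The shares over all genes tested were 6.48% lower and 4.79% higher. Fgfr1, a fibroblast growth factor receptor gene, averaged 10.6 ± 6.84 CPM in arthritic CD105+ cells and 306 ± 80.9 CPM in arthritic CD200+ cells (SD, n = 5 each; log2 change -4.84, edgeR adjusted p = 8.18e-05). The TGF-beta receptor genes Tgfbr2 (-2.29, edgeR adjusted p = 0.00562) and Tgfbr1 (-2.47, edgeR adjusted p = 0.022) and Il6st (-2.63, edgeR adjusted p = 0.0192), the shared receptor chain of the interleukin 6 family, were also lower. The calls of Tgfbr1 (-2.43, edgeR adjusted p = 0.0541) and Il6st (-2.44, edgeR adjusted p = 0.0502) were lost without library 14. None of the 13 was called with spike-in scaling, where the median was -1.35 and that of all genes 1.22. Il17ra, the interleukin 17 receptor gene, averaged 44.4 ± 24.5 CPM in arthritic CD200+ cells (SD, n = 5) and 11.5 ± 7.75 CPM in non-immunized CD200+ cells (SD, n = 4), a log2 change of 1.95 that was not called (edgeR adjusted p = 0.813).

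Of 20 matrix substrates of MMPs, 3 were lower and 0 higher in arthritic CD105+ than in arthritic CD200+ cells (median -1.44), and 8 were lower against non-immunized CD200+ cells (median -2.31). Over all genes tested, 6.48% and 7.63% were lower in these comparisons, and 4.79% were higher in the first. Spp1, the osteopontin gene, averaged 43.7 ± 58 CPM in arthritic CD105+ cells and 29739.2 ± 7237.1 CPM in arthritic CD200+ cells (SD, n = 5 each; log2 change -9.41, edgeR adjusted p = 0.000856). Lama2, a laminin chain gene (-6.65, edgeR adjusted p = 0.0115), and Tnc, the tenascin C gene (-5.83, edgeR adjusted p = 0.0167), were also lower. The Tnc call was lost in limma voom (-6.45, limma adjusted p = 0.0845). With spike-in scaling Spp1 alone was called (-7.17, edgeR adjusted p = 0.0156). In arthritic against non-immunized CD200+ cells none of the 20 was called, and Col1a2 averaged 2929.5 ± 2122.1 CPM (SD, n = 5) and 9673.0 ± 4748.7 CPM (SD, n = 4), a log2 change of -1.72 (edgeR adjusted p = 0.781).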

How the data were processed

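RNA of 14 samples of sorted synovial cells was measured with a low-input cDNA kit, spike-in RNA and Nextera XT libraries, per the labels' protocols. The deposited table holds raw counts per gene, made by the authors, and per the submitters' processing notes cutadapt, HISAT2, StringTie and edgeR were used with builds GRCm38 and mm10. Versions and the strand setting are not given in the sources used here. A further deposited table named as normalized holds the raw counts of a subset of genes and served as an alternative choice of genes. Gene symbols came from GENCODE M21 (GRCm38), which matched 47310 of 47729 gene IDs, and promoters from RefSeq.

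Spike-ins (92 entries) were left out of library sizes. Total counts per library ran from 12177437 to 40331071. edgeR 4.0.16 (R 4.3.3) filterByExpr (minimum count 10) left 15015 genes. With TMM factors, the 14 libraries were fitted together in 1 robust quasi-likelihood fit of 3 groups (common biological coefficient of variation 1.28). P-values are two-sided and adjusted by Benjamini-Hochberg over all genes, with a threshold of 0.05. The SE is approximate, from the log2 change and the F statistic, and 95% intervals are normal intervals from it, while a Poisson interval was exact. CPM per kb divides by the union of exons. Summed levels are sums of CPM over a list. Libraries of a group were compared in pairs, and none was a duplicate. The fit was tested on simulated counts.

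All 10 members are named, with up to 4 genes of each other list by smallest p and the 3 genes most like each of Mmp3, Mmp13, Mmp14 and Timp1. Members and lists were chosen with earlier results of these data known. Alternatives were RLE factors, spike-in library sizes, no filter, a filter of 10 CPM in 4 libraries, no robust option, only the groups compared, DESeq2 1.42.0, limma 3.58.1 voom with sample weights, the genes of the further table, omission of the libraries over 80% spike-ins, and omission of each library. Tables and figures were made in Python 3.11.15 with pandas 2.3.3 and matplotlib 3.10.9.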

Additional observations from a re-analysis of the deposited data

Results flagged for a closer look

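In each of 30 groups of a member's log2(CPM + 1) values, the library farthest from the others was checked by its gap relative to the group's range, with Dixon's 95% critical value, and 8 groups held a library that stood apart. In 4 of the 8 a single library had a count, so that the gap equals the range whatever the value. Chance flags about 1 in 20 groups of continuous values. That rate does not apply to those 4, nor to Mmp3 in arthritic CD105+ cells, where 3 libraries had no count. Mmp3 in arthritic CD105+ library 12 was at 2157.8 CPM, with the next library at 2.45 CPM. Mmp9 was at 16.2 CPM in arthritic CD105+ library 11 and Mmp11 at 11.9 CPM in arthritic CD105+ library 13, each the single library of that group with a count. Mmp19 was likewise at 3.61 CPM in arthritic CD200+ library 7 and at 12.4 CPM in non-immunized CD200+ library 1, with no count in the rest of either group. Mmp14 stood low in arthritic CD105+ library 10, at 8.21 CPM with the next library at 60.1 CPM. Timp2 was low in arthritic CD200+ library 6, at 93.7 CPM with the next at 532 CPM, and Mmp2 was low in non-immunized CD200+ library 2, at 39.8 CPM with the next at 320 CPM. Libraries 2 and 6 had 85.35% and 91.98% spike-ins, and the part of the spike-in share in their values was not tested.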

How the results depend on the processing

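No paired analysis was possible because the labels number the libraries 1 to 14 with no number shared between groups. In arthritic against non-immunized CD200+ cells, where edgeR called 0 genes, DESeq2 called 192 and limma voom 4, and the omission of each library gave 0 to 2, with 0 members throughout; the Timp1 change of -0.05 became 0.29 with spike-in scaling, 0.01 with the genes of the further table, 0.25 without the libraries over 80% spike-ins, 0.20 in limma voom and -0.45 to 0.39 with 1 library omitted (0.39, 0.26 and 0.09 without libraries 4, 5 and 6). The Mmp19 change ran from -8.26 to 6.13, positive without library 1. In arthritic CD105+ against CD200+ cells, 545 genes were called with spike-in scaling (390 higher and 155 lower, against 719 and 973 in the reported fit), 3269 by DESeq2, 4624 by limma voom and 1090 to 1713 with 1 library omitted, fewest without library 14. The members called there, 2 in the reported fit, were 1 with spike-in scaling, 1 with no filter, 4 without the libraries over 80% spike-ins, 5 in limma voom and 1 to 2 with 1 library omitted. Spike-in scaling gave positive changes for Mmp9 (0.35) and Mmp2 (0.31), both below the median of all genes under that scaling (1.22). Against non-immunized CD200+ cells, 278 genes were called with spike-in scaling (167 higher and 111 lower, against 836 and 1146), 3774 by DESeq2, 4993 by limma voom and 1308 to 1762 with 1 library omitted, fewest without library 14. The members called, 4 in the reported fit, were 1 with spike-in scaling, 3 with no filter, 5 without the libraries over 80% spike-ins, 7 in limma voom and 2 to 4 with 1 library omitted, 2 of them without library 4. Mmp3 turned to -1.07 in limma voom and ran from -3.31 to 7.12 with 1 library omitted, negative without library 12. The causes of these changes were not tested. Mmp13 was called in both CD105+ comparisons under every alternative. Mmp9, Mmp11 and Mmp19 had no count in 8, 6 and 9 libraries, with library 13 of 18553803 gene counts among those without Mmp9 and Mmp19, and the part of depth was not tested.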
